A study of Homo sapiens with 6 samples.

Results

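The genes described here are 32 members of the integrated stress response and of the amino acid supply that it controls, measured on arrays in H226 cells, an established human lung squamous carcinoma line. They were chosen by name as a functional set: 7 regulators and stress effectors, 6 enzymes of serine and one-carbon metabolism, 4 enzymes of asparagine, sulfur amino acid and carbon metabolism, 4 amino acid transporters, 1 secreted factor with 1 receptor, and the tRNA exporter with 8 aminoacyl-tRNA synthetases. Each member was represented by the probe set that names it alone, or, where there were several, by the brightest of them on average. This gave a value for 31 of the 32 members, among 18404 genes in all, and CBS, whose probe set also names another gene, has none under this rule. The cells carry a short hairpin RNA that doxycycline turns on (shp63), and 3 groups of 2 arrays were compared. The control cells were shp63 OFF in normal growth, and the Nutlin-3 cells were shp63 OFF and received 10 µM Nutlin-3 for 12 h. In the shp63 ON cells the hairpin was switched on by doxycycline, at 1 µg/mL over 48 h. Cells of every group had been plated 24 h before treatment. Nutlin-3 blocks MDM2, the ubiquitin ligase that holds p53 down. No other group had doxycycline and no array holds another hairpin, so the drug, its duration, the hairpin and the knockdown cannot be told apart. The labels used here name no vehicle for the control, so Nutlin-3 and its solvent cannot be told apart either. Treatment lasted 12 h with Nutlin-3 and 48 h with doxycycline, so between the treated groups agent and time cannot be told apart. The gene that the hairpin targets was not analysed here.

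The integrated stress response starts with kinases that sense amino acid shortage, misfolded protein, viral RNA or heme lack and phosphorylate the translation factor eIF2. General translation then slows while the mRNA of ATF4 is translated better, and ATF4, often paired with C/EBP proteins, turns on genes that make, import and charge amino acids onto tRNA. Because much of the control of ATF4 lies in its translation, the level of its RNA is not a measure of its activity. In squamous and other carcinomas the same genes supply serine, glycine and asparagine to dividing cells.

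Values are log2 intensities, on which a difference of 1 is a 2-fold change, and they ran from 2.94 to 14.9 over all arrays. Differences were tested with limma, with p-values adjusted across the 18404 genes. Where an array was left out, its group kept 1 array, which was assumed to vary like the other groups, and fewer degrees of freedom remained, so a call lost in this way is not by itself a smaller difference. Genes were called higher or lower at an adjusted p under 0.05. Replicate arrays correlated at 0.9971 to 0.998 and arrays of different groups at 0.9751 to 0.9886. Nothing in the labels says that replicates came from separate cultures, so the p-values may measure technical spread alone, and an exact two-sided permutation test of 2 arrays against 2 cannot go below p = 0.333. Of 14 squamous and basal epithelial markers 11 were measured, and their mean level was 9.45 on both control arrays, 9.96 and 9.90 in Nutlin-3, and 9.17 and 9.16 in shp63 ON, with 1 marker under the array medians. These markers went both ways: 4 were higher and 1 lower in Nutlin-3, and in shp63 ON 3 were higher (KRT15, KRT16 and PKP1) and 5 lower, with SERPINB13 lowest at −1.91. Mean levels were 6.75 to 6.92 for mesothelial and 6.07 to 6.18 for fibroblast markers. Of 8 fibroblast markers 6 lay under the array medians, but COL1A1 read 8.18 to 8.40 and FAP 8.48 to 8.93. None of the fibroblast markers was called in Nutlin-3. In shp63 ON COL3A1 (0.30) and PDGFRB (0.25) were called higher and FAP lower (−0.30). Endothelial means were 6.03 and 5.93 in control, 5.84 and 5.85 in Nutlin-3, and 6.21 and 6.12 in shp63 ON. Of 7 measured mesothelial markers 5 lay under the array medians, but MSLN read 9.76 to 10.09 and BNC1 9.45 to 10.55. BNC1 was called higher in Nutlin-3 (0.68) and lower in shp63 ON (−0.37), where 2 mesothelial markers were higher. Of 6 endothelial markers 1 was higher and 1 lower (CDH5, −0.47) in Nutlin-3, and in shp63 ON 2 were higher (CDH5 by 0.57) and none lower. The 7 measured leukocyte markers had means of 6.42 and 6.41 in control, 6.54 and 6.47 in Nutlin-3, and 6.71 and 6.69 in shp63 ON, where CD68, CD14 and TYROBP were called higher (0.75, 0.62 and 0.54) and none lower. In Nutlin-3 LAPTM5 and CD68 were called higher (0.89 and 0.29) and none lower. PTPRC, which marks all leukocytes, read 4.24 to 4.48 and was not called. Over all genes 18.5% were called in Nutlin-3 and 36.2% in shp63 ON. In the same order, the calls were 45.5% and 72.7% of the measured squamous markers and 14.3% and 42.9% of the mesothelial markers. They were 0% and 37.5% of the fibroblast, 33.3% and 33.3% of the endothelial and 28.6% and 42.9% of the leukocyte markers. The part of these markers in the results was not tested. Fewer cells of a type and less RNA per cell cannot be told apart on these arrays.

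Genes of the response are known for a composite element in their promoters to which ATF4 binds with a C/EBP partner, and the RefSeq promoters of the members (build GRCh38.p14, 250 bases before to 50 after each start) were searched for it. The motif was TGATGNAA on both strands, which includes the form TGATGCAA. Of the 32 members 28 had 1 or more windows, and ALDH1L2, NUPR1, PSPH and SHMT2 had none. A match stood in 10 of the 28 genes (35.7%), against 1217 of 27305 genes with a window (4.46%), and in 10 of 44 member windows (22.7%), against 1270 of 35116 windows of the same length (3.62%). TGATGCAA itself stood in 6 of the 44 (13.6%) and in 304 of all windows (0.866%). The members were chosen by name as genes of this response, so the higher shares among them are no independent result and were not tested. The tRNA genes held 5 of the 10 matches (GARS1, IARS1, MARS1, AARS1 and NARS1), the transporters 3 (SLC1A4, SLC3A2 and SLC7A1), and the asparagine synthetase ASNS and the glutathione-degrading enzyme CHAC1 1 each. The stretches of 30 bases around the match are shown for the comparison of its letters and its neighbours, with the match in capitals and each stretch read so that the motif begins with TGATG. SLC3A2, whose match lies at the end of its window, is named only.
CHAC1, chr15:40953251-40953280 (-): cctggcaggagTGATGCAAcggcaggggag
IARS1, chr9:92293692-92293721 (+): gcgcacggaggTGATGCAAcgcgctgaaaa
MARS1, chr12:57488053-57488082 (-): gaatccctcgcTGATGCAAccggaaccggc
AARS1, chr16:70289675-70289704 (+): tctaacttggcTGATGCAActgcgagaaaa
NARS1, chr18:57621804-57621833 (-): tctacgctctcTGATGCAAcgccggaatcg
SLC1A4, chr2:64989381-64989410 (-): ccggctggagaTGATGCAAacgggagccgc
GARS1, chr7:30594834-30594863 (-): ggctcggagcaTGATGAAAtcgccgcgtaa
ASNS, chr7:97872458-97872487 (-): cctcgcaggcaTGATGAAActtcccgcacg
SLC7A1, chr13:29595663-29595692 (-): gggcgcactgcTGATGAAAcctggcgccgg

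CHAC1 and IARS1 are the members with a match that were called against control in both treated groups, in the same direction for CHAC1 and in opposite directions for IARS1. Their 250 bases before the start are shown in the direction of transcription, with the match in capitals as it reads on that strand.
CHAC1, chr15:40953221-40953470 (+): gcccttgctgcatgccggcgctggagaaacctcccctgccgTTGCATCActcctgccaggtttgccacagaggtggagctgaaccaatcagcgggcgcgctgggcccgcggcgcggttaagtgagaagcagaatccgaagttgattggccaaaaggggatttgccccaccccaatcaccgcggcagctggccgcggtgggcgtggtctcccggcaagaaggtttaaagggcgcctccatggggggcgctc
IARS1, chr9:92293698-92293947 (−): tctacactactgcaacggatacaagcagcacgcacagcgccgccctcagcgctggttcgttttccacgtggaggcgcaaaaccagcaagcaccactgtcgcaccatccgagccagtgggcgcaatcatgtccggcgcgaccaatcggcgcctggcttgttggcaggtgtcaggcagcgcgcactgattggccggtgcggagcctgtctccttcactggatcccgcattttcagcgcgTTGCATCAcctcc
The match lies 209 bases before the start in CHAC1 and 13 bases before it in IARS1. A match is a run of letters and says nothing by itself of binding in these cells.

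Members with a match were called in either direction. In Nutlin-3 against control, 2 of the 10 rose and 1 fell, with a median log2 difference of 0.07. In shp63 ON against control, again 2 rose and 1 fell, with a median of −0.06. Of the 17 measured members whose windows held no match, 3 rose and 1 fell in Nutlin-3 (median 0.07), and 4 rose and 3 fell in shp63 ON (median −0.04). Of the 4 members without a window, 3 rose and 0 fell in Nutlin-3 (median 0.506, NUPR1 highest at 1.81). In shp63 ON 1 of these 4 rose and 1 fell (median −0.02). Over all genes 18.5% and 36.2% were called in these comparisons.

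In Nutlin-3 against control, 8 of the 31 members rose and 2 fell. Of the regulators and stress effectors NUPR1, CEBPB, DDIT3 and CHAC1 rose, as did the serine enzyme PSPH, the folate enzyme ALDH1L2 and the synthetases SARS1 and IARS1, while the arginine transporter SLC7A1 and the folate enzyme MTHFD2 fell. The largest member change was the 3.5-fold rise of NUPR1. The 10 calls are 32.3% of the members, and 18.5% of all genes were called in this comparison (9.64% higher and 8.89% lower). The 2 Nutlin-3 arrays did not overlap the 2 control arrays in 26 of 31 members, and 60.5% of all genes showed no overlap. The median member difference was 0.09, beside −0.002 over all genes. Leaving out control replicate 1 reduced the calls to 4, control replicate 2 or Nutlin-3 replicate 1 to 6, and Nutlin-3 replicate 2 to 7, and analysis of variance per gene without moderation gave 4. Other settings gave more calls: 13 (11 higher) with trended moderation, 13 (10 higher) by unadjusted analysis of variance and 12 (9 higher) with the filter on dim genes. Over all genes these settings called 4043, 4987 and 3836. CEBPB, NUPR1 and SARS1 stayed called in each of 17 alternative settings.

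In shp63 ON, 7 members rose and 5 fell against the same control arrays. The risers were DDIT3, CHAC1, NUPR1, the lipoprotein receptor VLDLR, the secreted glycoprotein STC2, the mitochondrial enzyme PCK2 and the synthetase NARS1. The fallers were MTHFD2, PSAT1, XPOT, IARS1 and SHMT2, of which 3 belong to serine and one-carbon metabolism. The 12 calls are 38.7% of the members, close to the 36.2% of all genes called here (19.7% higher and 16.5% lower). The groups did not overlap in 22 of 31 members, and 71.7% of all genes showed no overlap. The median member difference was −0.04, beside 0.04 over all genes. The count fell to 8 without control replicate 1 or without control replicate 2, and analysis of variance per gene without moderation gave 6. With trended moderation 18 members were called (8 higher and 10 lower), beside 7149 of the 18404 genes. Unadjusted analysis of variance gave 17 (7 higher and 10 lower), beside 6885 genes. Both the nearness to the share of all genes and the split by direction thus depended on the setting. CHAC1, IARS1, MTHFD2, SHMT2 and VLDLR stayed called in each of the 17 settings.

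**Figure D1:**
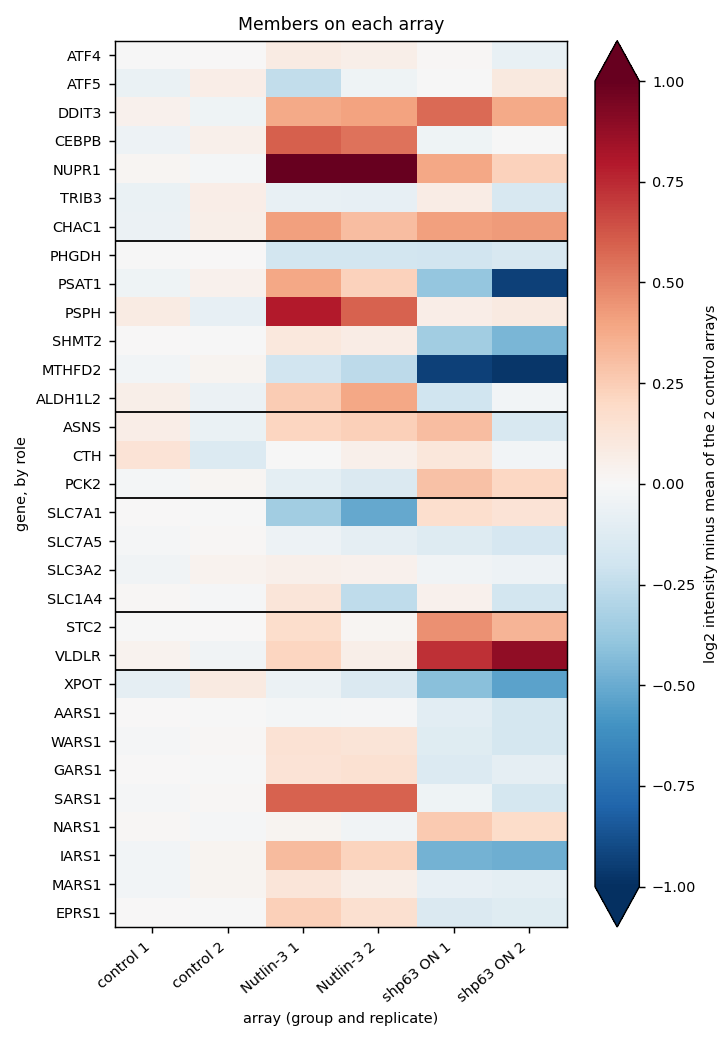
Each row is 1 of the 31 members with a value, each column is 1 of the 6 arrays, and the colour gives the log2 intensity minus the mean of the 2 control arrays, with the scale ending at 1 and −1. NUPR1 lies past the end of the scale on both Nutlin-3 arrays, and MTHFD2, PSAT1 and IARS1 are low on both shp63 ON arrays.

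Set side by side, 3 members were called higher in both treated groups (DDIT3, NUPR1 and CHAC1) and MTHFD2 was lower in both. IARS1 was higher in Nutlin-3 and lower in shp63 ON. Calls in Nutlin-3 alone were higher for CEBPB, PSPH, ALDH1L2 and SARS1 and lower for SLC7A1. Calls in shp63 ON alone were higher for PCK2, STC2, VLDLR and NARS1 and lower for PSAT1, SHMT2 and XPOT. No call was made in either for the other 14 members. Both comparisons use the same 2 control arrays.

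**Figure D2:**
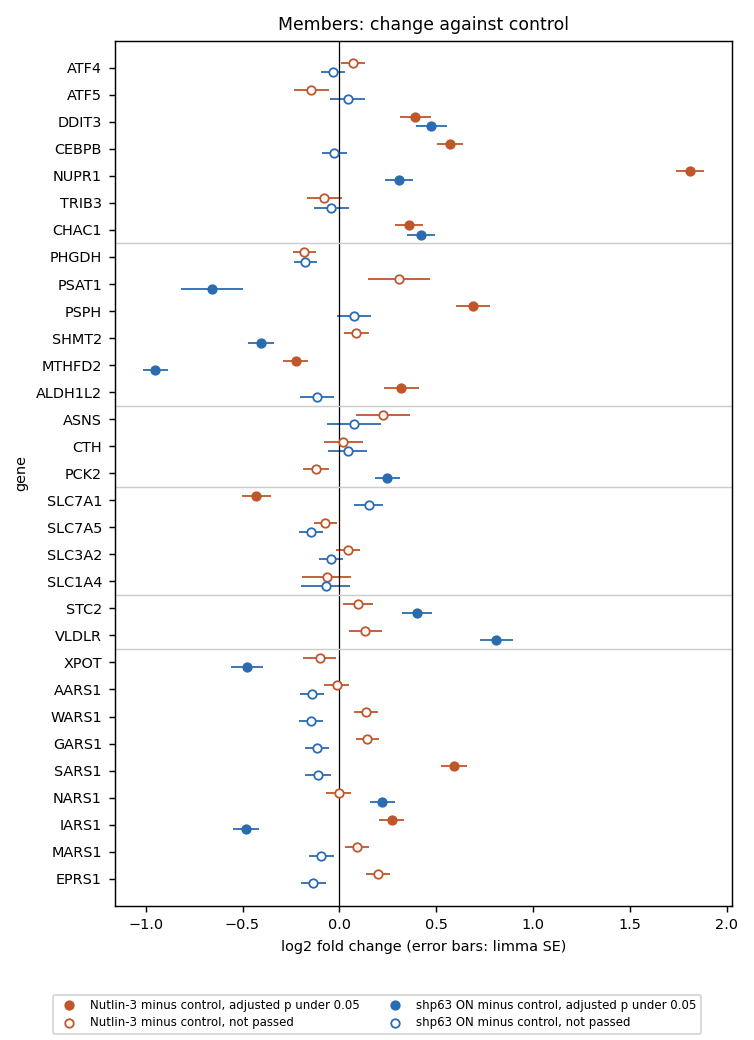
The log2 difference from control in Nutlin-3 and in shp63 ON is plotted for each member with its limma standard error as the bar, and filled symbols mark an adjusted p under 0.05. NUPR1 lies highest in Nutlin-3, at 1.81, and MTHFD2 lowest in shp63 ON, at −0.95.

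Among the regulators, ATF4, the transcription factor at the centre of the response, had levels of 10.63 and 10.63 in control, 10.71 and 10.69 in Nutlin-3, and 10.64 and 10.55 in shp63 ON. Its difference from control was 0.07 in Nutlin-3 (SE 0.06, adjusted p = 0.481, 95% interval −0.08 to 0.22) and −0.03 in shp63 ON (SE 0.06, adjusted p = 0.706, 95% interval −0.18 to 0.11). These intervals are for 1 probe set and for arrays that may be technical repeats, so they do not exclude larger changes. A second probe set of ATF4 differed from control by −0.02 and 0.17, of opposite sign to the first in both groups. Its 0.17 in shp63 ON lies above the interval of the first. ATF5, a relative of ATF4 that is also controlled at translation, had differences of −0.14 (adjusted p = 0.313) and 0.04 (adjusted p = 0.732). TRIB3, a pseudokinase induced by ATF4 that feeds back on it, read 7.51 and 7.64 in control, 7.50 and 7.49 in Nutlin-3, and 7.65 and 7.41 in shp63 ON, and neither difference from control passed the test. In TRIB3 the shp63 ON arrays overlapped both other groups.

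DDIT3 encodes CHOP, a C/EBP family factor induced in prolonged stress, and its levels were 7.56 and 7.48 in control, 7.90 and 7.92 in Nutlin-3, and 8.09 and 7.90 in shp63 ON. Every treated array lay above both control arrays, and the Nutlin-3 and shp63 ON arrays overlapped. It rose by 0.39 (SE 0.08, adjusted p = 0.0144) in Nutlin-3 and by 0.47 (SE 0.08, adjusted p = 0.00387) in shp63 ON, or 1.31-fold and 1.39-fold. CHAC1 encodes an enzyme that breaks down glutathione and is a target of ATF4 and CHOP, and its levels were 7.48 and 7.60 in control, 7.95 and 7.85 in Nutlin-3, and 7.95 and 7.97 in shp63 ON. It rose by 0.36 (SE 0.07, adjusted p = 0.0131) in Nutlin-3 and by 0.42 (SE 0.07, adjusted p = 0.00401) in shp63 ON. Neither gene differed between the treated groups beyond the threshold (0.08, adjusted p = 0.421, and 0.06, adjusted p = 0.498). In Nutlin-3 the adjusted p of DDIT3 was 0.0596, 0.0923 and 0.0594 without control replicate 1, control replicate 2 and Nutlin-3 replicate 2 (differences 0.43, 0.35 and 0.38), and that of CHAC1 was 0.101 and 0.0604 without control replicate 1 and Nutlin-3 replicate 1. In RefSeq the DDIT3 gene overlaps MARS1, and whether their probes share signal was not tested.

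NUPR1 encodes a small chromatin-associated stress protein, and its levels were 9.00 and 8.96 in control, 10.81 and 10.76 in Nutlin-3, and 9.36 and 9.21 in shp63 ON. Both Nutlin-3 arrays stood far above all others, and both shp63 ON arrays above control. The rise was 1.81 (SE 0.07, adjusted p = 9.27e-06) in Nutlin-3, 3.5-fold, and 0.31 (SE 0.07, adjusted p = 0.0148) in shp63 ON, 1.24-fold. The shp63 ON call was lost without control replicate 1 (adjusted p = 0.0593), control replicate 2 (0.0838) or shp63 ON replicate 1 (0.0806). CEBPB encodes C/EBP beta, a partner of ATF4 in the composite element, and its levels were 9.24 and 9.34 in control, 9.89 and 9.83 in Nutlin-3, and 9.25 and 9.28 in shp63 ON. It rose 1.49-fold in Nutlin-3 (0.57, SE 0.07, adjusted p = 0.00116), while its difference in shp63 ON was −0.03 (SE 0.07, adjusted p = 0.793). For CEBPB the shp63 ON arrays stood within the control range, and the antisense gene CEBPB-AS1 overlaps the locus.

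**Figure D3:**
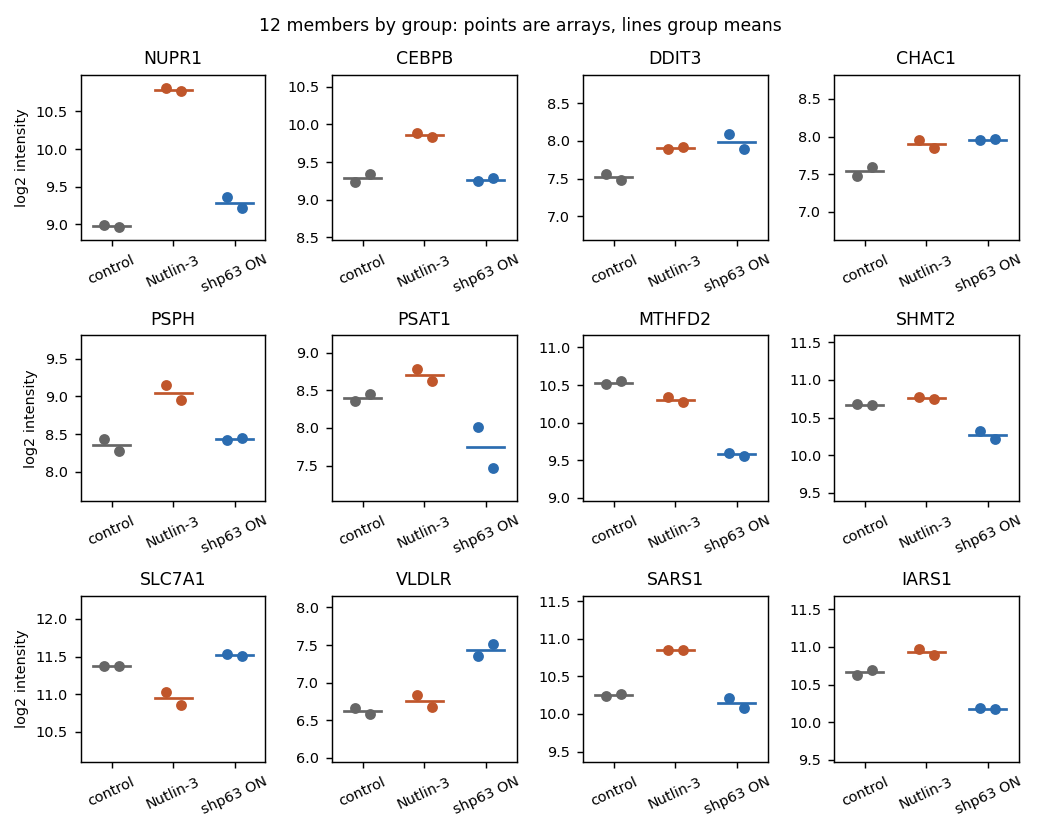
Log2 intensities of 12 members, 1 panel each with its own axis, as points by group (2 arrays per group) with a line at the group mean. NUPR1, CEBPB and SARS1 are separated upward in Nutlin-3, and MTHFD2, PSAT1 and SHMT2 downward in shp63 ON.

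The serine pathway makes serine from a glycolytic intermediate in 3 steps, catalysed by PHGDH, PSAT1 and PSPH, and these 3 enzymes had different patterns. PHGDH, the first enzyme, read 8.40 and 8.41 in control, 8.22 and 8.22 in Nutlin-3, and 8.21 and 8.24 in shp63 ON, with all 4 treated arrays under both control arrays. Its differences of −0.18 (adjusted p = 0.0748) and −0.18 (adjusted p = 0.0529) did not pass. Both were called lower with the filter on dim genes (adjusted p = 0.0439 and 0.0324) and by the adjusted analysis of variance (0.0275 and 0.02), and the shp63 ON difference also with centred arrays (0.0415) and trended moderation (0.0461). PSAT1, the aminotransferase of the second step, read 8.36 and 8.45 in control, 8.79 and 8.63 in Nutlin-3, and 8.02 and 7.47 in shp63 ON. It fell by 0.66 in shp63 ON (SE 0.16, adjusted p = 0.0167), 1.58-fold, although the replicates of that group lay far apart, and its difference in Nutlin-3 was 0.31 (adjusted p = 0.232). The PSAT1 call was lost without control replicate 1 (adjusted p = 0.06) or control replicate 2 (0.0917), and the fall was 0.93 without shp63 ON replicate 1 and 0.38 without shp63 ON replicate 2.

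PSPH, the phosphatase of the third step, read 8.44 and 8.28 in control, 9.15 and 8.95 in Nutlin-3, and 8.42 and 8.44 in shp63 ON. The Nutlin-3 arrays lay above all others and the rise was 1.61-fold (0.69, SE 0.09, adjusted p = 0.00186), while in shp63 ON the difference was 0.08 (adjusted p = 0.528). A second probe set of PSPH gave 0.53 in Nutlin-3 and −0.34 in shp63 ON, so the direction in shp63 ON differed between probe sets. PSPH has closely similar pseudogene copies, which makes its signal uncertain.

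The mitochondrial arm passes the carbon of serine to folate through SHMT2 and oxidises it through MTHFD2, and both fell in shp63 ON. SHMT2 read 10.68 and 10.66 in control, 10.77 and 10.74 in Nutlin-3, and 10.32 and 10.21 in shp63 ON. It fell by 0.40 in shp63 ON (SE 0.07, adjusted p = 0.00348), 1.32-fold, and its Nutlin-3 difference was 0.09 (adjusted p = 0.405). MTHFD2 read 10.51 and 10.56 in control, 10.34 and 10.27 in Nutlin-3, and 9.60 and 9.56 in shp63 ON, with control highest, Nutlin-3 between and shp63 ON lowest, without overlap. Its fall was 0.95 in shp63 ON (SE 0.06, adjusted p = 6.77e-05), 1.93-fold, and 0.23 in Nutlin-3 (SE 0.06, adjusted p = 0.0476), 1.17-fold. The Nutlin-3 call ended in 11 of 17 settings, among them leaving out any 1 of the 6 arrays and centring arrays on their medians (adjusted p = 0.0666). Leaving out an shp63 ON array is here the same fit as that of the 4 arrays compared (adjusted p = 0.0682), so these settings are not all distinct. A second MTHFD2 probe set gave −0.20 and −0.74. ALDH1L2, the mitochondrial folate dehydrogenase, read 6.03 and 5.91 in control, 6.22 and 6.36 in Nutlin-3, and 5.76 and 5.94 in shp63 ON. Its rise in Nutlin-3 was 0.32 (SE 0.09, adjusted p = 0.0429) and its difference in shp63 ON −0.11 (adjusted p = 0.343). The ALDH1L2 call was lost without control replicate 1 (adjusted p = 0.102), control replicate 2 (0.201), Nutlin-3 replicate 1 (0.0541) or Nutlin-3 replicate 2 (0.166).

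Of the asparagine, sulfur amino acid and carbon enzymes, none was called in Nutlin-3 (0 of 3 also at an unadjusted p under 0.05, with limma or analysis of variance) and PCK2 rose in shp63 ON. ASNS makes asparagine and is a standard reporter of ATF4, and its levels were 8.05 and 7.92 in control, 8.20 and 8.22 in Nutlin-3, and 8.30 and 7.82 in shp63 ON. The shp63 ON replicates of ASNS enclosed the control arrays, with a difference of 0.07 (SE 0.14, adjusted p = 0.712), and the Nutlin-3 difference was 0.23 (SE 0.14, adjusted p = 0.308). Without shp63 ON replicate 2, ASNS was called higher in shp63 ON (0.31, adjusted p = 0.0469). CTH, which cleaves cystathionine to cysteine, read 5.66 and 5.38 in control, 5.52 and 5.57 in Nutlin-3, and 5.64 and 5.50 in shp63 ON, with all groups overlapping. PCK2, the mitochondrial phosphoenolpyruvate carboxykinase, read 8.07 and 8.11 in control, 7.99 and 7.95 in Nutlin-3, and 8.38 and 8.30 in shp63 ON, and rose by 0.25 (SE 0.07, adjusted p = 0.022) in shp63 ON. That call was lost without control replicate 1 (adjusted p = 0.109), control replicate 2 (0.0774) or shp63 ON replicate 1 (0.111).

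Of the 4 transporters, only SLC7A1 was called against control, and only in Nutlin-3. SLC7A1 imports arginine and lysine, and its levels were 11.38 and 11.37 in control, 11.03 and 10.86 in Nutlin-3, and 11.54 and 11.51 in shp63 ON. The Nutlin-3 arrays lay under and the shp63 ON arrays above control. It fell by 0.43 in Nutlin-3 (SE 0.07, adjusted p = 0.00703), 1.35-fold, and its shp63 ON difference was 0.15 (SE 0.07, adjusted p = 0.147). The fall was not called without control replicate 1 (adjusted p = 0.0555), and the shp63 ON difference was called after cyclic loess (0.25, adjusted p = 0.0334) or quantile normalization (0.23, adjusted p = 0.0404). SLC7A5 and SLC3A2 form the exchanger that imports leucine, and their differences from control were between −0.15 and 0.04, none of them called. SLC1A4, which carries alanine, serine and cysteine, read 6.90 and 6.89 in control, 7.02 and 6.64 in Nutlin-3, and 6.94 and 6.71 in shp63 ON, with overlap among the groups.

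STC2 and VLDLR, listed as targets of the response outside amino acid metabolism, both rose in shp63 ON. STC2, a secreted glycoprotein, read 8.08 and 8.09 in control, 8.26 and 8.10 in Nutlin-3, and 8.54 and 8.42 in shp63 ON, and rose 1.32-fold in shp63 ON (0.40, SE 0.08, adjusted p = 0.00703). VLDLR, the very low density lipoprotein receptor, read 6.66 and 6.58 in control, 6.83 and 6.68 in Nutlin-3, and 7.35 and 7.51 in shp63 ON, and rose 1.75-fold (0.81, SE 0.08, adjusted p = 0.000489). In Nutlin-3 the differences were 0.10 and 0.13, neither called. Genes with a level between 6 and 7, as VLDLR had in control, were shifted by a median of 0.17 in shp63 ON (3167 genes), and after cyclic loess the VLDLR difference was 0.72 and still called. The antisense gene VLDLR-AS1 overlaps VLDLR.

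The charging enzymes were split. SARS1, the cytosolic seryl-tRNA synthetase, read 10.24 and 10.26 in control, 10.84 and 10.85 in Nutlin-3, and 10.21 and 10.08 in shp63 ON. It rose 1.51-fold in Nutlin-3 (0.59, SE 0.07, adjusted p = 0.00108), and in shp63 ON it differed by −0.11 (adjusted p = 0.244). IARS1, the isoleucyl enzyme, with a TGATGCAA match close to its start, read 10.63 and 10.69 in control, 10.97 and 10.89 in Nutlin-3, and 10.19 and 10.17 in shp63 ON, with every Nutlin-3 array above and every shp63 ON array under control. It rose by 0.27 (SE 0.06, adjusted p = 0.0272) in Nutlin-3 and fell by 0.48 in shp63 ON (SE 0.06, adjusted p = 0.00152). The Nutlin-3 call of IARS1 was lost without control replicate 1 (adjusted p = 0.157), control replicate 2 (0.0867) or Nutlin-3 replicate 1 (0.108).

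NARS1, the asparaginyl enzyme, read 11.68 and 11.65 in control, 11.69 and 11.63 in Nutlin-3, and 11.93 and 11.84 in shp63 ON, and rose by 0.22 (SE 0.07, adjusted p = 0.0327) in shp63 ON. That call was lost without control replicate 1 (adjusted p = 0.1), control replicate 2 (0.144), shp63 ON replicate 1 (0.15) or shp63 ON replicate 2 (0.0542). XPOT, which carries charged and uncharged tRNA out of the nucleus, read 9.68 and 9.86 in control, 9.71 and 9.63 in Nutlin-3, and 9.36 and 9.23 in shp63 ON, and fell by 0.48 in shp63 ON (SE 0.08, adjusted p = 0.00475), 1.39-fold. The alanyl (AARS1), tryptophanyl (WARS1), glycyl (GARS1), methionyl (MARS1) and glutamyl-prolyl (EPRS1) enzymes were not called against control in either group. Their differences were −0.01 to 0.20 in Nutlin-3 and −0.15 to −0.09 in shp63 ON, and after cyclic loess the latter lay between −0.05 and −0.01. With trended moderation EPRS1, GARS1 and WARS1 were called higher in Nutlin-3 (adjusted p = 0.0202, 0.0232 and 0.045). That setting also called AARS1, WARS1 and GARS1 lower in shp63 ON (adjusted p = 0.042, 0.0215 and 0.0385). EPRS1 was called higher in Nutlin-3 with centred arrays (0.0371) and the filter on dim genes (0.0395) as well.

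Compared directly, shp63 ON was lower than Nutlin-3 in 14 members and higher in 5. The 19 calls are 61.3% of the members, and 51.5% of all genes were called (27.5% higher and 24% lower). The groups did not overlap in 25 members, and 76.7% of all genes showed no overlap. The median member difference was −0.13, beside 0.03 over all genes. In this comparison too the difference over all genes moved with level, from a median of 0.25 for levels between 6 and 7 to −0.13 between 9 and 10, where the members' median level of 9.57 lies. After cyclic loess 12 of the lower and 5 of the higher calls remained, with GARS1 and MARS1 lost and a member median of −0.11. Of the 6 serine and one-carbon enzymes 5 were lower in shp63 ON, PHGDH being the exception at 0.01. The differences were −0.96 for PSAT1, −0.72 for MTHFD2, −0.61 for PSPH, −0.49 for SHMT2 and −0.44 for ALDH1L2, with adjusted p between 0.000125 and 0.00473.

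Of the 9 tRNA genes 7 were lower in shp63 ON than in Nutlin-3 and NARS1 was higher (0.23, SE 0.07, adjusted p = 0.0216). These calls are 88.9% of the list, beside 51.5% of all genes. IARS1 differed by −0.75, SARS1 by −0.70, XPOT by −0.38, EPRS1 by −0.33, WARS1 by −0.28, GARS1 by −0.26 and MARS1 by −0.18. The MARS1 call (adjusted p = 0.0413) held in 7 of 17 settings: it was lost on leaving out any 1 array (0.0576 to 0.157), and its difference was −0.07 after quantile or cyclic loess normalization. GARS1 was not called after cyclic loess (−0.15, adjusted p = 0.0695). NARS1 was not called without Nutlin-3 replicate 2 (0.0902), without shp63 ON replicate 1 (0.11) or with arrays centred on their medians (0.0502).

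The remaining calls between the treated groups were NUPR1 and CEBPB, lower in shp63 ON by 1.5 (SE 0.07, adjusted p = 1.11e-05) and 0.60 (SE 0.07, adjusted p = 0.000337), and PCK2, SLC7A1, STC2 and VLDLR, higher by 0.37, 0.58, 0.30 and 0.68. The STC2 call was lost without Nutlin-3 replicate 2 (adjusted p = 0.0713) or shp63 ON replicate 1 (0.0827). Without shp63 ON replicate 1 ASNS was called lower (−0.39, adjusted p = 0.0158), and without Nutlin-3 replicate 2 ATF5 was called higher (0.29, adjusted p = 0.0409).

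Upstream of ATF4, the eIF2 complex, its exchange factor eIF2B, the kinases and the phosphatase subunits were measured as 16 genes. In Nutlin-3, 5 rose and none fell, and in shp63 ON, 1 rose and 7 fell. These are 31.2% and 50% of the list, beside 18.5% and 36.2% of all genes. After cyclic loess 7 of the 8 shp63 ON calls remained, EIF2B2 was lost, and DELE1 and PPP1R15B were higher. Against Nutlin-3, shp63 ON was lower in 9 and higher in none, and lower in 8 and higher in 1 (PPP1R15B) after cyclic loess. Of all genes 51.5% were called there. EIF2AK4 (GCN2, the kinase that senses uncharged tRNA) read 9.64 and 9.63 in control, 10.12 and 10.08 in Nutlin-3, and 9.10 and 9.18 in shp63 ON. It rose by 0.47 (SE 0.06, adjusted p = 0.00253) in Nutlin-3, fell by 0.49 in shp63 ON (SE 0.06, adjusted p = 0.00124), and differed by −0.96 between the treated groups. The eIF2B subunit EIF2B3 followed the same order, with levels of 7.63 and 7.59 in control, 8.15 and 8.17 in Nutlin-3, and 7.32 and 7.13 in shp63 ON.

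Also lower in shp63 ON were EIF2S1, the eIF2 subunit that the kinases phosphorylate (−0.42), and EIF2AK2 (PKR, the sensor of double-stranded RNA, −0.40). EIF2AK3 (PERK, the sensor in the endoplasmic reticulum) and EIF2AK1 (HRI, the heme sensor) were not called in any comparison. PPP1R15A encodes GADD34, the stress-induced subunit that directs the phosphatase to eIF2, and its levels were 9.53 and 9.55 in control, 9.92 and 9.83 in Nutlin-3, and 9.87 and 9.84 in shp63 ON. It rose by 0.34 (SE 0.06, adjusted p = 0.0103) in Nutlin-3 and 0.32 (SE 0.06, adjusted p = 0.00777) in shp63 ON. DELE1, which relays mitochondrial stress to HRI, rose in Nutlin-3 (0.36, SE 0.08, adjusted p = 0.0234). The Nutlin-3 calls numbered 2 without control replicate 1 and 3 without control replicate 2 or Nutlin-3 replicate 2, and the PPP1R15A call was among those lost without either control replicate (adjusted p = 0.0765 and 0.058). DELE1 lost its call without control replicate 1 (0.143) or either Nutlin-3 array (0.0924 and 0.0564), and EIF2B3 lost its shp63 ON call without control replicate 1 (0.0517).

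**Figure D4:**
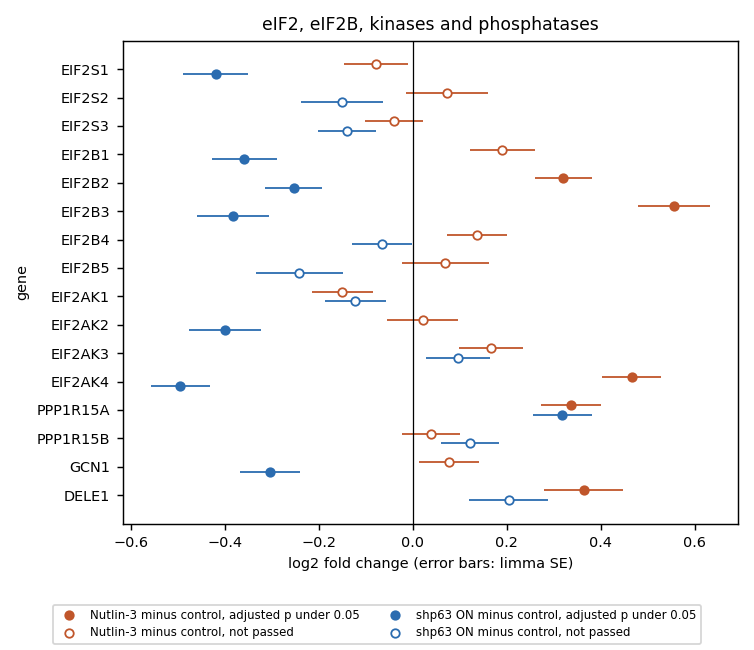
Log2 differences from control in Nutlin-3 and shp63 ON for the 16 genes of eIF2, eIF2B, the kinases and the phosphatase subunits, with limma standard errors as bars and filled symbols where the adjusted p is under 0.05. EIF2AK4 and EIF2B3 lie above 0 in Nutlin-3 and under 0 in shp63 ON, and PPP1R15A above 0 in both.

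Further targets of ATF4 outside the members were measured as 14 of 15 genes, of which 5 rose and 1 fell in Nutlin-3, and 4 rose and 4 fell in shp63 ON. These are 42.9% and 57.1% of the list, beside 18.5% and 36.2% of all genes. ATF3 and VEGFA lost their shp63 ON calls after cyclic loess. The cytokine GDF15 read 8.67 and 8.80 in control, 11.09 and 11.01 in Nutlin-3, and 9.20 and 9.06 in shp63 ON, and rose by 2.32 in Nutlin-3 and 0.39 in shp63 ON, where the call was lost without control replicate 1 (adjusted p = 0.0591) or shp63 ON replicate 1 (0.0529). SESN2, a sestrin that restrains mTORC1, rose by 1.12 in Nutlin-3 and differed by 0.00 in shp63 ON. VEGFA and DDIT4, a growth factor and an mTORC1 inhibitor, rose by 0.67 and 0.63 in Nutlin-3. Several of these genes, including GDF15 and SESN2, are also known p53 targets. In shp63 ON the cystine importer SLC7A11 fell by 0.74 (SE 0.07, adjusted p = 0.000243), NIBAN1 by 0.64 and DDIT4 by 0.43, and KLHL24 rose by 0.69. The DDIT4 fall was not called without control replicate 2 (adjusted p = 0.0586), and the 8 calls of the list in shp63 ON became 5 without control replicate 1 or without shp63 ON replicate 1. In the direct comparison shp63 ON was lower in 6 and higher in 4 of the 14, which is 71.4% of the list beside 51.5% of all genes.

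The other cytosolic aminoacyl-tRNA synthetases and their scaffold gave 13 measured genes of 16, and none was called in Nutlin-3, beside 18.5% of all genes. At an unadjusted p under 0.05 limma gave 1 and analysis of variance 2, and 1 was called without Nutlin-3 replicate 2. In shp63 ON 7 fell and none rose, which is 53.8% of the list beside 36.2% of all genes. The groups did not overlap in 13 of 13, beside 71.7% of all genes. FARSB, a subunit of the phenylalanyl enzyme, read 11.36 and 11.38 in control, 11.35 and 11.29 in Nutlin-3, and 10.54 and 10.47 in shp63 ON, and fell by 0.87 (SE 0.06, adjusted p = 0.000101). RARS1, HARS1 and VARS1, the arginyl, histidyl and valyl enzymes, fell by 0.41, 0.37 and 0.33. Calls were 3 without control replicate 1, 2 without control replicate 2, 5 without shp63 ON replicate 1, 3 without shp63 ON replicate 2, and 5 lower (KARS1 and YARS1 lost) with 1 higher (QARS1) after cyclic loess. HARS1 lost its call without control replicate 2 (adjusted p = 0.0596), and VARS1 without control replicate 1, control replicate 2 or shp63 ON replicate 2 (0.0505 to 0.0529).

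Of 16 measured mitochondrial synthetases (17 listed), AARS2 and FARS2 rose in Nutlin-3 (0.49, adjusted p = 0.0484, and 0.26, adjusted p = 0.0337). FARS2 fell by 0.39 in shp63 ON and NARS2, with levels of 9.31 and 9.34 in control, 9.5 and 9.44 in Nutlin-3, and 8.50 and 8.56 in shp63 ON, by 0.79. The 2 calls in each treated group are 12.5% of the list, beside 18.5% of all genes in Nutlin-3 and 36.2% in shp63 ON. Both Nutlin-3 calls were lost without control replicate 1, control replicate 2 or Nutlin-3 replicate 2, and FARS2 also without Nutlin-3 replicate 1 (adjusted p 0.0594 to 0.249). In shp63 ON 4 were called lower without either Nutlin-3 array. Against Nutlin-3, shp63 ON was lower in 8 of the 16 and higher in none, which is 50% of the list beside 51.5% of all genes. After cyclic loess it was lower in 6, of which 5 were among the 8, and higher in 1 (LARS2).

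Other folate and one-carbon genes gave 13 values of 16. In Nutlin-3 GLDC, the glycine decarboxylase, rose by 1.14, and the cytosolic enzymes SHMT1 and MTHFD1 fell by 0.66 and 0.41. In shp63 ON 5 fell and 1 rose. The calls are 23.1% of the list in Nutlin-3 and 46.2% in shp63 ON, beside 18.5% and 36.2% of all genes. After cyclic loess ALDH1L1 and MTRR lost their shp63 ON calls and DLD was higher there. TYMS, the thymidylate synthase that uses folate carbon for DNA precursors, read 9.59 and 9.69 in control, 9.74 and 9.53 in Nutlin-3, and 7.42 and 7.39 in shp63 ON and fell by 2.24 (SE 0.09, adjusted p = 6.98e-06). MTHFD1 fell by 0.92, the mitochondrial folate carrier SLC25A32 by 0.59 and the methionine synthase MTR by 0.43. The 1 rise, ALDH1L1, was 0.15 after cyclic loess (adjusted p = 0.204) and was not called after quantile normalization (0.105), with centred arrays (0.0616) or without control replicate 1 (adjusted p = 0.0684), control replicate 2 (0.201) or shp63 ON replicate 2 (0.187).

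Of 15 other amino acid transporters 3 rose and 2 fell in Nutlin-3, and 3 rose and 4 fell in shp63 ON. These are 33.3% and 46.7% of the list, beside 18.5% and 36.2% of all genes. After cyclic loess SLC7A7 (adjusted p = 0.184), SLC7A8 (0.102) and SLC36A1 lost their shp63 ON calls and SLC1A3 was higher. SLC1A5, the glutamine carrier, read 10.21 and 10.24 in control, 10.06 and 9.92 in Nutlin-3, and 9.03 and 8.85 in shp63 ON, and fell by 1.29 in shp63 ON (SE 0.08, adjusted p = 5.67e-05), or by 0.66 when its probe sets were averaged. SLC36A4 and SLC7A2 fell by 0.50 and 0.36. The lysosomal transporter SLC36A1, the glutamate carrier SLC1A3 and SLC7A8 rose by 0.44, 0.43 and 0.41 in Nutlin-3, and SLC7A2 fell by 0.30. Without control replicate 1 the Nutlin-3 calls numbered 1, with SLC36A1 and SLC7A8 lost (adjusted p = 0.0699 and 0.0555), and without any other control or Nutlin-3 array 3. SLC7A2 was lost on leaving out any 1 of those 4 arrays (0.0513 to 0.109). In shp63 ON the 3 rises were not called without control replicate 1, control replicate 2 or shp63 ON replicate 2, which left 3 calls each.

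The chaperones and degradation factors of the endoplasmic reticulum, induced by the unfolded protein response, numbered 18. In Nutlin-3 5 rose and none fell, which is 27.8% of the list beside 18.5% of all genes. Among the risers were EDEM1, which passes misfolded glycoproteins to degradation (0.51, SE 0.10, adjusted p = 0.0101), SEL1L (0.35), PDIA4 (0.29) and HERPUD1 (0.29). Calls numbered 1 without control replicate 1, none without control replicate 2, 1 without Nutlin-3 replicate 1 and 2 without Nutlin-3 replicate 2. In shp63 ON HERPUD1 rose (0.35, SE 0.07, adjusted p = 0.00975) and PDIA4 fell (−0.21, SE 0.07, adjusted p = 0.0445), which is 11.1% of the list beside 36.2% of all genes. HERPUD1 lost that call without control replicate 1 (adjusted p = 0.0659) or shp63 ON replicate 2 (0.0549), and PDIA4 held it in 6 of 17 settings, losing it without any 1 of the 6 arrays (0.0514 to 0.193) and after cyclic loess (0.194). HSPA5, the main chaperone of this compartment, read 11.99 and 12.07 in control, 12.40 and 12.22 in Nutlin-3, and 12.11 and 11.86 in shp63 ON and was not called against control. It was lower in shp63 ON than in Nutlin-3 (−0.33, SE 0.10, adjusted p = 0.0281), but not after quantile (0.0745) or cyclic loess normalization (0.1). In that comparison 8 of the 18 were lower and none higher, which is 44.4% of the list beside 51.5% of all genes. After cyclic loess 4 of these calls remained.

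Of 14 measured genes of other amino acid synthesis (17 listed), 3 rose and 2 fell in Nutlin-3, and 3 rose and 5 fell in shp63 ON. These are 35.7% and 57.1% of the list, beside 18.5% and 36.2% of all genes. GPT, MAT2A and OAT lost their shp63 ON calls after cyclic loess. PRODH, the proline oxidase, rose by 0.88 in Nutlin-3 (SE 0.15, adjusted p = 0.00683), and AHCY, which hydrolyses S-adenosylhomocysteine, by 0.41. AHCY fell by 0.66 in shp63 ON, so that the treated groups differed by −1.07 (SE 0.07, adjusted p = 3.68e-05). ALDH18A1, which starts proline synthesis, fell by 0.73 in shp63 ON, and the aspartate aminotransferase GOT1 rose by 0.78, with levels of 11.07 and 11.14 in control, 11.18 and 11.04 in Nutlin-3, and 11.90 and 11.87 in shp63 ON. ASS1, which joins citrulline and aspartate on the way to arginine, rose in both (0.35 and 0.67), and the alanine aminotransferase GPT fell by 0.37 in Nutlin-3. Without control replicate 1 or control replicate 2 the Nutlin-3 calls numbered 1, and 3 without Nutlin-3 replicate 1. In shp63 ON the 8 calls became 5 without control replicate 2 or shp63 ON replicate 1. The Nutlin-3 calls of PRODH, AHCY, ASS1 and GPT each ended without 1 or more of these arrays (adjusted p 0.0524 to 0.0978).

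**Figure D5:**
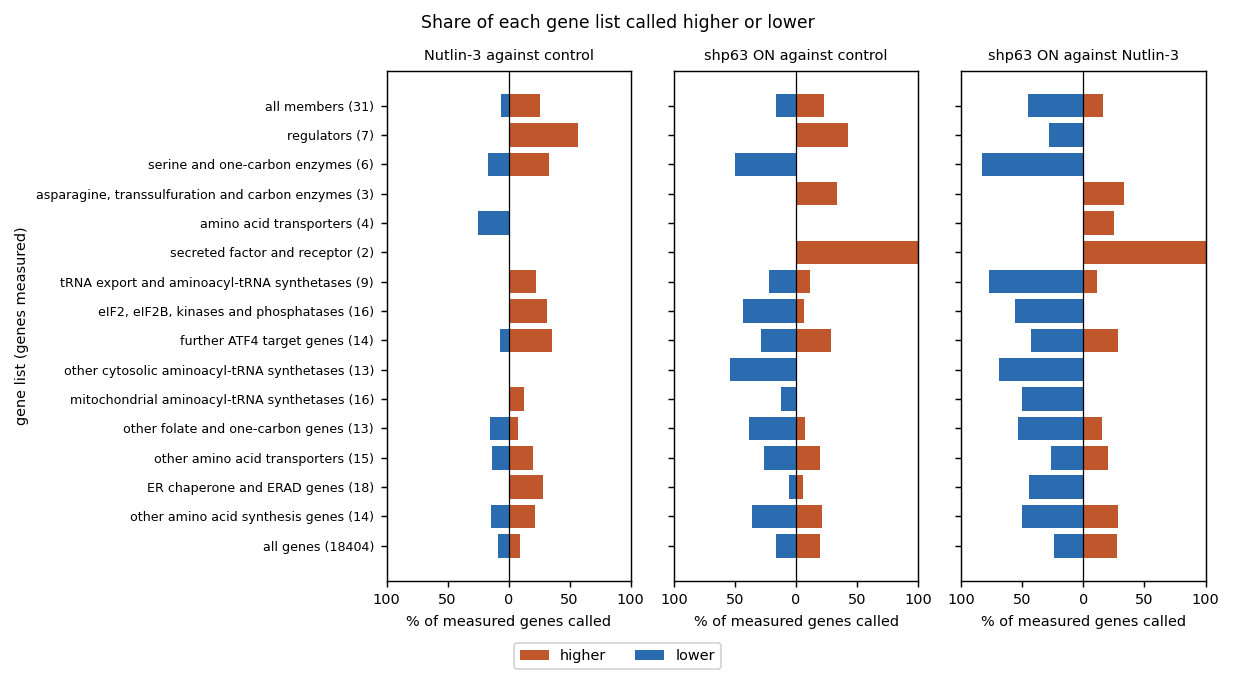
Percent of measured genes called higher (bars to the right) and lower (bars to the left) at an adjusted p under 0.05 in each list and among all 18404 genes, with 1 panel for each of the 3 comparisons. Among the other cytosolic synthetases no gene was called in Nutlin-3 and 7 of 13 were called lower in shp63 ON.

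The lists are small and were read by counts, with no test over any of them. In shp63 ON against control the differences over all genes moved with level: the median was 0.17 for levels between 6 and 7 and −0.06 for levels between 10 and 11, where several of the synthetases lie, and the trend was wider against Nutlin-3. After cyclic loess normalization, which removes such a trend, every one of the 12 member calls of this comparison remained, with MTHFD2 at −0.86, PSAT1 at −0.63, XPOT at −0.40, IARS1 at −0.39 and SHMT2 at −0.31. The mean levels of the squamous, leukocyte and endothelial markers moved with the groups as given above.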

How the data were processed

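The measurements are total RNA levels from 6 Affymetrix HuGene 1.0 ST arrays, 2 per group. The authors deposited a table of normalized log2 intensities of 32321 probe sets. That they are log2 was judged from their range. The background correction, normalization and probe summary were not given in the sources used here. Per the submitters' processing notes Partek was used, and the design text names a one-way analysis of variance. Of the probe sets 19158 name 1 gene in the platform annotation, 1388 several and 11775 none. The first kind gave 18404 genes, with the highest mean chosen for the 637 genes that have several. The number of arrays limits the precision.

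limma 3.58.1 (R 4.3.3) fitted 1 mean per group over all 6 arrays with Benjamini-Hochberg adjustment over all genes (7.5 total degrees of freedom after moderation), and was tested on simulated data. The differences are log2 fold changes computed here. The members, gene lists and tests were chosen with earlier results of these data known, so no test was run over a list. Every member with a value was named, and up to 4 called genes per other list with the largest difference in a comparison. A few further genes of those lists (EIF2AK1, EIF2AK3 and ALDH1L1) were chosen after their values were seen. Others, such as ATF3, KARS1 and OAT, were named only because cyclic loess changed their call. The 17 alternative settings are 3 normalizations, a filter on dim genes (mean under 6), trended and robust moderation, the mean of a gene's probe sets, the replicate number as a block, a fit of the 4 arrays compared, analysis of variance with and without adjustment, and leaving out each array. For genes outside the members they were run after seeing the data. Leaving out 1 array of the group not compared gives the same fit as the 4 arrays compared, so counts of settings hold this fit more than once.

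Replicate numbers were not taken to pair arrays, since no label ties them to a shared batch and replicate differences of 2 groups correlated at −0.06 to 0.11. Promoter sequences are those of RefSeq, GRCh38.p14. Gene symbols were checked through Entrez identifiers, of which 19128 matched.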

Additional observations from a re-analysis of the deposited data

Results flagged for a closer look

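Signals outside the comparisons came from probe sets that name a member together with another gene. The probe set of CBS, the cystathionine synthase, which also names LOC102724560, read 7.12 and 7.12 in control, 7.0 and 6.96 in Nutlin-3, and 7.29 and 7.30 in shp63 ON. Its mean in shp63 ON was 0.18 above control, and in Nutlin-3 0.14 below it (−0.14). A second probe set of PHGDH, shared with MZT2B, had means over 2 arrays of 10.42 in control, 10.37 in Nutlin-3 and 10.84 in shp63 ON. It stood 0.41 above control in shp63 ON, while the probe set that names PHGDH alone was 0.18 below (−0.18). Neither was tested, and which of the named genes gave the signal cannot be told apart.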

How the results depend on the processing

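Of 526 member values under the 17 alternatives in each comparison, 476 kept their direction and side of the threshold in Nutlin-3 against control (32 lost a call, 11 gained one), 467 in shp63 ON against control (20 lost, 18 gained) and 483 in shp63 ON against Nutlin-3 (20 lost, 5 gained). No called value changed sign, and 7, 21 and 18 uncalled values did. The adjusted analysis of variance called 1236, 3003 and 6089 genes, and 4 (3 higher, 1 lower) and 6 (2 higher, 4 lower) members against control, in place of 3410, 6670, 9481, 10 and 12. Leaving out 1 array gave 1405 to 2991, 3454 to 6960 and 7356 to 8918 genes, and 4 to 9, 8 to 12 and 17 to 18 members. With the replicate number as a block, 3097, 6530 and 9405 genes and 8, 12 and 18 members were called, and the block ended the Nutlin-3 calls of MTHFD2 (adjusted p = 0.0688) and ALDH1L2 (0.0502) and the MARS1 call between treated groups (0.0608). Centring arrays on their medians changed the split of all calls from 1774 higher and 1636 lower to 2175 and 1236 in Nutlin-3, and from 5057 and 4424 to 4243 and 5201 between treated groups. The filter on dim genes (mean under 6) left out CTH. Low intensities limit what can be seen for CTH and ALDH1L2.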
